A study of Mus musculus with 4 samples.

Results

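Tafazzin is the mitochondrial transacylase that remodels cardiolipin. In mouse pancreatic islets of a Tafazzin knockdown and of controls, 9 genes of the interleukin 6 cytokine family were followed. They were the ligand genes Il6, Il11, Lif and Clcf1, the receptor genes Osmr, Lifr, Il6st and Il11ra1, and the feedback inhibitor gene Socs3. The 9 rows were taken by gene symbol from a table of 24940 genes. The set was chosen by the difference between knockdown and control values in these same 4 libraries, so the differences between the groups in these 9 genes are given as a description, with no p-value, and counts of them past a threshold support nothing. Islets were from male mice of 3 to 4 months on a low-fat chow. The control group was non-transgenic (replicates 1 and 2) and the other group was Tafazzin-knockdown (replicates 3 and 4). About 300 islets went into each library, a pool of 2 to 3 mice. How the knockdown is driven, and in which cells, is not stated in the labels, and an effect of the transgene cannot be told apart from one of Tafazzin depletion.

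The family is named for its founding member, interleukin 6, and its cytokines share the receptor chain gp130, the product of Il6st. IL-6 and IL-11 first bind a private receptor, the latter the product of Il11ra1, and then gather gp130. LIF joins gp130 to the LIF receptor, CLCF1 acts through the CNTF receptor with the LIF receptor and gp130, and oncostatin M uses gp130 with either the LIF receptor or the product of Osmr. The engaged chains activate JAK kinases and the transcription factor STAT3, which switches on Socs3, whose product binds gp130 and dampens the signal. Islet endocrine cells carry gp130, and stromal and endothelial cells are known sources and targets of the family.

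The unit used throughout is 1 read in 10000000 of a library. Reads were apparently counted over whole gene bodies, introns included, without regard to strand. Library totals were 68823160 and 81073502 reads in the controls, against 76680282 and 78630832 in the knockdown libraries. Of 55470964 to 65175895 reads assigned to genes in a library, 4320910 to 4962798 lay outside 13 rows averaging above 25000 units. The insulin genes Ins1 and Ins2, also above that level, were not among the 13. Control replicate 2 had the largest total and the fewest reads outside those rows. A single read was worth 0.123 to 0.145 units. Of the 36 counts of the 9 genes 31 were even numbers, and among all genes 73.4% to 75.1% of the counts above 0 were even, as they would be if both reads of a pair were counted. The number of independent fragments may therefore be smaller than the read counts given here. Ins2, an insulin gene of beta cells, stood at 46108 to 58452 units, so that the labelled tissue carried its defining transcript. Taz, the targeted gene, stood at 23.1 and 15.4 units in the controls, against 13.8 and 12.7 in the knockdown libraries (limma adjusted p = 0.528), below both controls without passing the test. Whether the pools came from different litters or isolation days is not stated, and p-values rest only on spread between these libraries. In the limma fit of the report that spread is a trend over all genes, which replaced the spread of each gene. With 2 libraries a group, the smallest two-sided p of an exact permutation test is 0.333.

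Upstream sequence was available for 8 of the 9 genes, all but Clcf1, from RefSeq on GRCm38.p6, the assembly named mm10. The stretches shown lie just upstream of starts of the 3 ligand genes with the highest values in the knockdown libraries, together with the surroundings of a STAT match near Socs3. Only these genes had a window with a match to a motif searched. Osmr was also higher in both knockdown libraries, but its window held no match and is not shown. Capitals mark matches to AP-1 (TGANTCA) and NF-kappaB motifs in the ligand genes and to the STAT motif (TTCNNNGAA) in Socs3. Each sequence reads 5′ to 3′ towards the gene.
Il6, chr5:30012864-30013113, plus strand: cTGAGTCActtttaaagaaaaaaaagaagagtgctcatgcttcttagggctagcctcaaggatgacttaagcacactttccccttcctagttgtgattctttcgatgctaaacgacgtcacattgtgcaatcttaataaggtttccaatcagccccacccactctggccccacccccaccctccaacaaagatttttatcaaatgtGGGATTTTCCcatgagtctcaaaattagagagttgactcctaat
Il11, chr7:4778142-4778391, minus strand: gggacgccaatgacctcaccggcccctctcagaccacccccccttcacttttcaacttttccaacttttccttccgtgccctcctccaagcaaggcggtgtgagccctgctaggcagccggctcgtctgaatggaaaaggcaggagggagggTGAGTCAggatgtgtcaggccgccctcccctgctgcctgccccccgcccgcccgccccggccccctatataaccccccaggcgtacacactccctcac
Lif, chr11:4257318-4257556, plus strand: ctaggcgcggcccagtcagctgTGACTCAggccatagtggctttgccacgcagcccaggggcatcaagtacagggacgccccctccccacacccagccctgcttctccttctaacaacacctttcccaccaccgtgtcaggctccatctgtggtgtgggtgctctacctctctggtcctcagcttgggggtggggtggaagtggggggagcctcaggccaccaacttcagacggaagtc
Socs3, chr11:117969502-117969530, minus strand: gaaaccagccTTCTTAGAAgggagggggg

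Over 32851 windows of 250 bases before annotated starts, searched on both strands, the AP-1 letters were found in 6.75%, the STAT letters in 7.02% and the NF-kappaB motif in 3.90%. In the 11 windows of the 8 genes the AP-1 letters occurred in 3, each belonging to a ligand gene. In Il6 the match lay 249 to 243 bases before the start, in Il11 98 to 92 bases and in Lif 228 to 222 bases. The Il11 match precedes the inner annotated start at 4778141, inside an intron of the longer transcript, and the window of the outer start at 4782857 held no match to either motif. The NF-kappaB match of Il6 lay 44 to 35 bases before its start, and the STAT match of Socs3 154 to 146 bases before its start. The cAMP response element letters TGACGTCA were found in 1.55% of all windows and in none of the 11. None of these 5 motifs occurred in the windows of Osmr, Lifr, Il6st or Il11ra1. TATAAA was found in 12.4% of all windows and in none of the 11. None of the matches overlapped another, and a match is a description of the letters, not a binding site.

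All 4 ligand genes were higher in both knockdown libraries than in both controls, as were 34.9% of all genes fitted. Il6 encodes the founding cytokine of the family (NM_001314054; chromosome 5, 30013114 to 30019975, plus strand). Control replicates 1 and 2 held 2.03 and 2.96 units of Il6, against 14.6 and 7.63 units in knockdown replicates 3 and 4, from 14, 24, 112 and 60 reads. Both knockdown values were above both controls, and the lower of them was 2.58 times the higher control. The mean of the knockdown libraries was 11.1 ± 4.93 units (SD, n = 2), 4.45 times that of the controls, whose SD was 0.655. On the log2(value + 1) scale the fold change was 1.58 ± 0.30 SE relative to the median of all genes, which was 0.17. This SE, like every limma SE below, comes from the trend of spread over all genes at that level. It does not hold the gene's own spread between replicates.

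Il11 encodes a cytokine of stromal and epithelial cells (NM_001290423; chromosome 7, 4772378 to 4782857, minus strand). It stood at 6.10 and 18.0 units in the controls, against 59.5 and 43.9 units in the knockdown libraries, from 42, 146, 456 and 345 reads. The controls differed from each other by 2.95 times, more than in any other of the 9 genes, while the knockdown libraries differed by 1.36 times. The ratio of the means was 4.29 and the log2 fold change relative to the median was 2.00 ± 0.25 SE, at position 12 from the top of 13531 genes fitted. That SE, taken from the trend, does not contain the difference between the controls. Without control replicate 1 it was 1.15 and without control replicate 2 it was 2.84, so the size of the difference in Il11 rested on which control was used.

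Lif encodes leukaemia inhibitory factor (NM_008501; chromosome 11, 4257568 to 4272514, plus strand). It was read at 4.65 and 3.70 units in the controls, against 21.4 and 16.3 units in the knockdown libraries. Among the 9 genes Lif had the widest gap as a ratio of its lower knockdown value to its higher control, while in units the gaps of Il11 and Socs3 were wider. Its mean went from 4.18 ± 0.672 to 18.8 ± 3.61 units (SD, n = 2 each), a ratio of 4.51 with a log2 fold change of 1.77 ± 0.27 SE. Osm, the oncostatin M gene 16.5 kb upstream of Lif on chromosome 11, had 0 reads in all 4 libraries. A count of 0 allows up to 3 read pairs, or 0.740 to 0.872 units.

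Clcf1 encodes cardiotrophin-like cytokine factor 1 (NM_001310038; chromosome 19, 4214238 to 4223505, plus strand) and had the lowest values of the 9. It stood at 0.872 and 1.48 units in the controls, against 8.09 and 3.31 units in the knockdown libraries, on 6, 12, 62 and 26 reads. The knockdown libraries differed by 2.45 times, the widest spread within that group among the 9 genes. The ratio of the means was 4.84 and the log2 fold change 1.37 ± 0.37 SE, which was 0.84 without knockdown replicate 3. Clcf1 lies wholly inside the row of Gm45928, a transcript on the same strand, and their reads cannot be told apart.

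**Figure D1:**
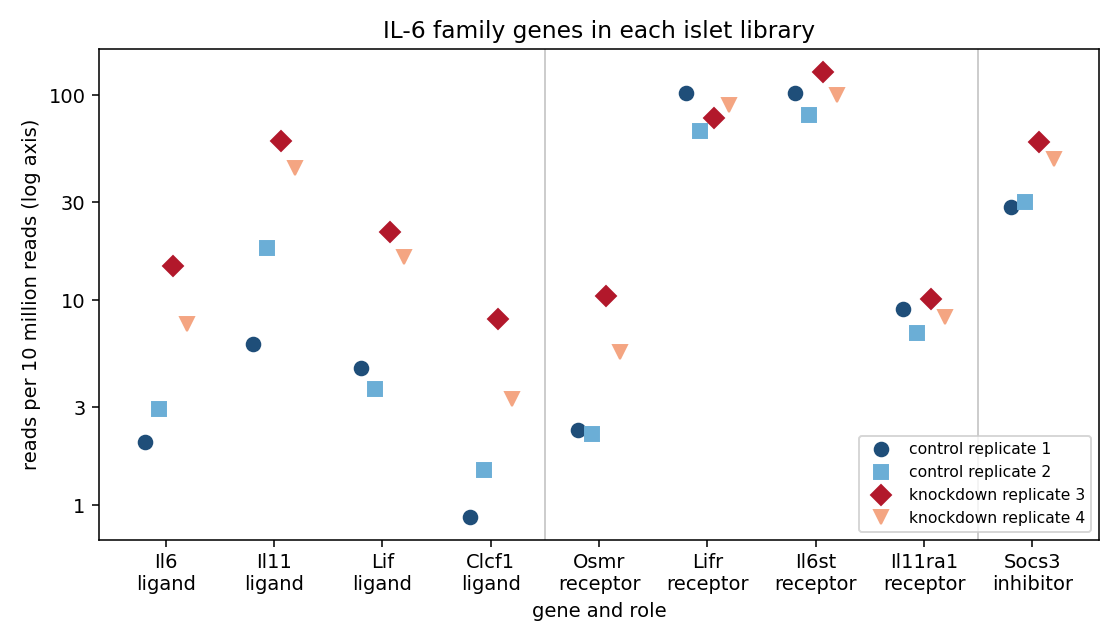
Level of each of the 9 genes in the 4 islet libraries, in units (reads per 10000000 reads) on a log axis, with 1 point per library and no error bars. Il6, Il11, Lif, Clcf1, Osmr and Socs3 had both knockdown points above both control points, from 0.872 units for Clcf1 to 59.5 units for Il11. Of all genes fitted 34.9% had both knockdown values above both controls. The points of Lifr, Il6st and Il11ra1 overlapped.

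Of the receptor genes, Osmr alone was higher in both knockdown libraries than in both controls, as were 34.9% of all genes fitted. It encodes the oncostatin M receptor chain (NM_011019; chromosome 15, 6813577 to 6874313, minus strand) and stood at 2.33 and 2.22 units in the controls against 10.4 and 5.60 units in the knockdown libraries. The controls agreed within 1.05 times, and the lower knockdown value was 2.41 times the higher control. The mean went from 2.27 ± 0.0742 to 8.01 ± 3.42 units (SD, n = 2 each), a ratio of 3.53 with a log2 fold change of 1.24 ± 0.32 SE. Counts of 16, 18, 80 and 44 reads lay behind these values.

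Il6st, the gene of the shared chain gp130 (NM_010560; chromosome 13, 112464070 to 112506860, plus strand), stood at 103 and 80.4 units in the controls, against 130.0 and 101 units in the knockdown libraries. Knockdown replicate 3 was the highest library and knockdown replicate 4 lay between the controls. Its log2 fold change was 0.16 ± 0.24 SE, with a 1.26 ratio of the means. Lifr, the LIF receptor gene (NM_001358593; chromosome 15, 7129572 to 7197489, plus strand), stood at 102 and 66.6 units against 77.1 and 89.3 units, with both knockdown libraries between the controls. The log2 fold change of Lifr was -0.16 ± 0.24 SE. Lifr and Osmr lie 255 kb apart on chromosome 15.

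Il11ra1, the private receptor of IL-11 (NM_001172054; chromosome 4, 41760443 to 41769473, plus strand), stood at 9.01 and 6.91 units in the controls, against 10.2 and 8.27 units in the knockdown libraries. The groups overlapped and the log2 fold change was 0.03 ± 0.27 SE. Near-identical copies of the gene exist: Il11ra2, with 4 copies in the table, had 0 reads in every library, and reads that match several copies may be missing from Il11ra1. It also shares 4 bases with Ccl27a, on the other strand.

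Socs3 encodes the inhibitor that binds gp130 and its JAK kinase (NM_007707; chromosome 11, 117966087 to 117969366, minus strand). It stood at 28.5 and 30.1 units in the controls, against 58.9 and 48.8 units in the knockdown libraries, from 196, 244, 452 and 384 reads. The controls agreed within 1.06 times, and the lower knockdown library was 1.62 times the higher control. The mean went from 29.3 ± 1.14 to 53.9 ± 7.15 units (SD, n = 2 each), a ratio of 1.84 with a log2 fold change of 0.69 ± 0.25 SE.

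Relative to gene length the 9 genes ranked differently in the groups. Per kilobase of gene span and averaged over the 4 libraries, the level was 12.7 units for Socs3, 3.04 for Il11, 2.42 for Il6st, 1.23 for Lifr, 0.992 for Il6, 0.951 for Il11ra1, 0.770 for Lif, 0.371 for Clcf1 and 0.0847 for Osmr. In the controls Il11 lay below Il6st, at 0.582 and 1.72 against 2.40 and 1.88 units per kilobase. In the knockdown libraries it lay above Il6st, at 5.68 and 4.19 against 3.04 and 2.35. Over the 4 libraries the range of Socs3 lay above that of Il11, and the range of Il6st above that of Lifr. The ranges of the other neighbours in this order overlapped, down to Clcf1 and Osmr at 0.0941 to 0.873 and 0.0366 to 0.172 units per kilobase. Per kilobase of GENCODE vM21 exon the order was the same except among Il6, Lif and Il11ra1. Exons made up 9.04% of the span of Osmr and 77.8% of that of Socs3, so that levels per span set genes with long introns low.

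All 9 genes passed the filter on low values. By limma on log2(value + 1), with Benjamini-Hochberg adjustment over 13531 genes at a threshold of 0.05, 6 of the 9 were past the threshold on the higher side and 0 on the lower, where 2.49% and 0.0443% of all genes were (2.53% in either direction). Nothing is read from this count, since the same values led to the choice of the genes. Both knockdown libraries exceeded both controls in 6 of the 9, and in 34.9% of all genes fitted, and lay below both in 0 of the 9, and in 4.49% of all genes. The 6 also shared the order knockdown replicate 3, then knockdown replicate 4, then the controls, which 22.6% of all genes showed. Of the 4727 genes with both knockdown libraries above both controls, 3062 had that order. After median-ratio scaling of the libraries 4 of the 9 were past the threshold (Il6, Il11, Lif and Socs3), where 1.12% of all genes were higher, 0.155% lower and 1.27% either. By edgeR on the recovered reads 5 were, all but Clcf1 of the 6, where 1.24% of all genes were higher, 0.133% lower and 1.37% either. Without knockdown replicate 3 only Il11 and Lif were, where 0.236% of all genes were called, and with no filter on low values 0 were, where 0.409% of all genes were.

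**Figure D2:**
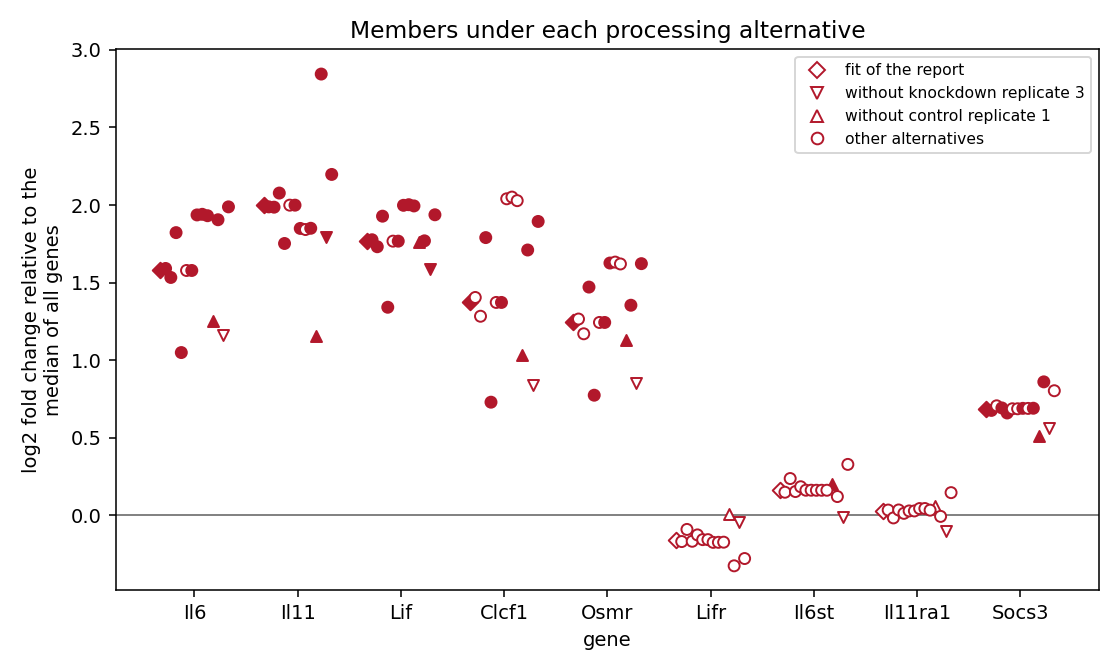
Log2 fold change of each gene, knockdown over control and relative to the median of all genes, in the fit of the report and under 13 alternatives; filled symbols passed an adjusted p of 0.05 there. Lif stayed between 1.34 and 2.00 and Il11 between 1.15 and 2.84, while Lifr, Il6st and Il11ra1 stayed between -0.33 and 0.33.

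Genes nearest to Il11 in their pattern over the 4 libraries were sought among 10444 genes with a mean of at least 5 units, by the Euclidean distance of log2(value + 1) centred per gene. The 6 nearest were Tm4sf1, a tetraspan membrane protein, Itgb6, an integrin chain, Ano1, a calcium-activated chloride channel, the metalloproteases Adam12 and Mmp2, and Inhba, a subunit of activin. Tm4sf1, at a distance of 0.27, stood at 2.91 and 7.89 units in the controls, against 24.8 and 19.3 units in the knockdown libraries. In all 6 control replicate 2 was above control replicate 1 and knockdown replicate 3 above knockdown replicate 4, as in Il11. The choice by distance over these same libraries favours that order, so it supports nothing. The distance of Il6 was 0.90 at position 23, that of Clcf1 1.06 at position 42 and that of Lif 1.215 at position 74. Osmr followed with 1.31 at position 97 and Socs3 with 1.62 at position 234. Il6st was at position 2614, Il11ra1 at 4361 and Lifr at 9303. Nothing is read from these positions, since the same values led to the choice of the genes.

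Other genes of the pathway were counted by the same limma fit. Of 76 genes outside the 9, 63 could be tested. Of these 12 rose and 2 fell, against 2.49% and 0.0443% of all genes tested. Among them, 11 that rose and the 2 that fell were on the list of STAT3 targets. The lists were chosen with earlier results of these data known, so the counts are a description. The median of the 63 log2 fold changes was 0.14, where that of all genes is 0 by construction. After median-ratio scaling 5 rose and 0 fell, where 1.12% and 0.155% of all genes did, with 3 lower at an unadjusted p under 0.05. By edgeR 6 rose and 0 fell, where 1.24% and 0.133% of all genes did, with 5 lower at an unadjusted p under 0.05. Without knockdown replicate 3 the higher calls were lost, as were most of those among all genes. Without control replicate 1 more genes were called in both directions, here and among all genes. Each of these 2 fits has a single library in a group.

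Other ligand genes of the family were read at low levels. Ctf1, the cardiotrophin 1 gene, stood at 6.83 and 3.33 against 3.91 and 2.93 units (limma adjusted p = 0.801). Ebi3, a subunit of interleukin 27, was chosen after its values were seen and stood at 2.32 and 0.987 against 0.261 and 0.509 units (limma adjusted p = 0.589). It overlaps Gm16712 on the other strand. Ctf2, Cntf, Il27, Il31 and Osm were below the filter.

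None of the 3 other receptor genes tested passed in either direction by limma, with 0 at an unadjusted p under 0.05. Calls by edgeR and DESeq2 were 0 too, with 0 and 1 at an unadjusted p under 0.05. Il6ra, the private receptor of IL-6, stood at 58.1 and 43.9 units in the controls, against 52.0 and 49.0 in the knockdown libraries (limma adjusted p = 0.999). Cntfr, the CNTF receptor that CLCF1 also uses, was named after its values were seen and stood at 51.1 and 39.0 against 45.9 and 38.7 units. In both genes the groups overlapped. The row of Il31ra, 15.9 kb from Il6st, held 19302 to 27129 units, far above Il6ra, and was not read as a level of that receptor. Without control replicate 2 it was called lower (limma adjusted p = 0.0113).

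Of 13 signal transducers tested 0 were called by limma, edgeR or DESeq2, with 1 at an unadjusted p under 0.05 by limma, and their median log2 fold change was 0.01. Without control replicate 1 the kinase gene Jak1, named after its values were seen, was called higher (limma adjusted p = 0.00481), with 7 of the 13 at an unadjusted p under 0.05. Stat3, the main transcription factor of the pathway, stood at 242 and 191 units in the controls, against 268 and 224 in the knockdown libraries (limma adjusted p = 0.893). Shc1, an adaptor of receptor signalling, stood at 240.3 and 187 against 232 and 219 units (limma adjusted p = 0.965). Other inhibitors of the pathway gave the same count, 0 of 15 by limma, edgeR or DESeq2, with 3 at an unadjusted p under 0.05 by limma. Ptpn1, a phosphatase of JAK kinases, stood at 48.2 and 52.8 against 69.8 and 74.4 units (limma adjusted p = 0.413), and was called without control replicate 2 (0.0280). Ptprt, a receptor phosphatase of STAT3, stood at 153 and 105 against 154 and 163 units (limma adjusted p = 0.745), and was called without control replicate 1 (0.00134).

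**Figure D3:**
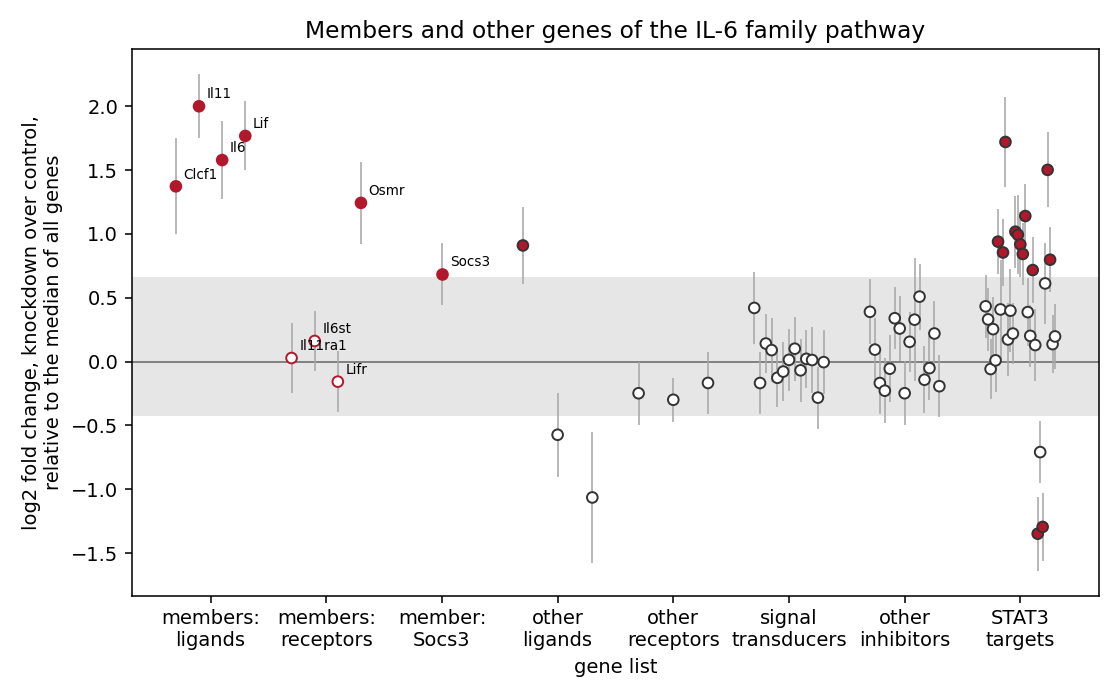
Log2 fold change, knockdown over control, relative to the median of all genes, for the 9 genes (red outline, named) and the tested genes of 5 other pathway lists (dark outline); bars are the limma SE, filled points passed an adjusted p of 0.05 and the grey band spans the 5th to the 95th percentile of all genes, -0.42 to 0.65. The 4 ligand genes, Osmr and Socs3 lay above the band, and the transducers and other inhibitors lay inside it.

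Genes known as targets of STAT3 were the longest of the pathway lists and had the most calls. Of 29 tested, 11 rose and 2 fell, where 2.49% and 0.0443% of all genes did. The median log2 fold change of the 29 was 0.40, and in 22 both knockdown libraries exceeded both controls, as in 34.9% of all genes. The list was chosen with earlier results of these data known, so these counts are a description. Timp1, an inhibitor of matrix metalloproteases, rose from 2.62 and 3.45 units in the controls to 14.2 and 9.67 under knockdown, a log2 fold change of 1.50 ± 0.29 SE (limma adjusted p = 3.12e-06). It lies inside Syn1 on the other strand, whose row holds 9.60 times its level. Fgg, the fibrinogen gamma chain, rose from 1.16 and 1.23 units in the controls to 9.39 and 5.34 under knockdown, by 1.72 ± 0.35 SE (limma adjusted p = 1.87e-05). Lcn2, the iron-binding acute-phase protein lipocalin 2, rose from 18.6 and 14.1 units in the controls to 53.3 and 32.2 under knockdown, by 1.14 ± 0.25 SE (limma adjusted p = 3.09e-05).

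Egr1, an immediate early transcription factor, rose from 14.7 and 10.9 units in the controls to 29.7 and 27.0 under knockdown (limma adjusted p = 0.00114), and Il4ra, an interleukin 4 receptor chain, from a mean of 9.22 units to 27.4 and 15.5 (limma adjusted p = 0.00213). In these 5 rising genes the groups did not overlap. After median-ratio scaling 5 of the list rose, where 1.12% of all genes did. Timp1, Fgg, Lcn2 and Egr1 were among the 5, while Il4ra did not pass (limma adjusted p = 0.0527). By edgeR 6 rose, where 1.24% of all genes did. Without knockdown replicate 3 none of the 5 passed, with limma adjusted p from 0.0793 for Timp1 to 1.0 for Il4ra, and Egr1 did not pass without knockdown replicate 4 either (0.0689). With no filter on low values none of the 5 passed. Of the most abundant members, Vegfa stood at 210.4 and 178 against 245 and 233 units (limma adjusted p = 0.774) and Ccnd1, which overlaps Oraov1, at 142 and 87.2 against 116 and 123 units (limma adjusted p = 0.956). Each of these was called higher without control replicate 1 (0.0183 for Vegfa and 0.0291 for Ccnd1).

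The 2 targets that fell were Reg3a and Reg3g, lectins of the exocrine pancreas, and in both the groups overlapped. Reg3g stood at 9.44 and 25.3 units in the controls, against 13.2 and 3.05 in the knockdown libraries (-1.29 ± 0.27 SE, limma adjusted p = 0.00185). With libraries scaled by median ratios Reg3g did not pass (limma adjusted p = 0.171), nor by edgeR (0.184), without control replicate 2 (0.673) or without knockdown replicate 4 (1.0). Its libraries had the same order as the summed level of 12 acinar markers, which was 2838 and 5693 units in the controls, against 4934 and 2311 in the knockdown libraries. The part of acinar tissue in this result was not tested.

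Markers of other cell types differed between the groups along with the family. Of 13 markers of stellate cells and fibroblasts 7 rose by limma, where 2.49% of all genes did. In all 13 both knockdown libraries exceeded both controls, as in 34.9% of all genes. Their summed level was 124 and 126 units in the controls, against 356 and 281 in the knockdown libraries. Endothelial markers rose in 5 of 12, with sums of 204 and 171 against 389 and 301 units, and duct markers in 4 of 10 tested (the groups overlapped in 1 of the 4), with sums of 879 and 932 against 1721 and 1134 units. Macrophage markers rose in 2 of 7 tested, Lyz2 and Cd14, with sums over the list of 37.2 and 37.4 against 54.5 and 46.7 units. The median log2 fold change of the 7 was -0.03, and the other 5 lay below the median of all genes. Without knockdown replicate 3, a fit with a single knockdown library, most or all calls of each list were lost. Most higher calls among all genes were lost there too. In bulk islets more cells of a type and more RNA per cell cannot be told apart.

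Neutrophil and lymphocyte markers were at or near 0. S100a8, Ly6g, Cxcr2, Mpo and Elane of 7 neutrophil markers, and Cd3d, Cd4, Ms4a1 and Nkg7 of 10 lymphocyte markers, had 0 reads in every library. The summed level over the neutrophil list was at most 0.522 units and over the lymphocyte list at most 3.26 units. Beta cell markers summed to 99720 and 78769 units in the controls, against 83861 and 91055 in the knockdown libraries, with overlap. Ins1 and Ins2 made up most of these sums. The log2 fold changes of the 12 markers ran from -0.75 to -0.12 with a median of -0.34, all below the median of all genes. In 2, Mafa and Trpm5, both knockdown libraries lay below both controls, as in 4.49% of all genes. Of the 12, 0 were called by limma, with 1 at an unadjusted p under 0.05. Lower calls were 1 by edgeR and 2 by limma after median-ratio scaling, where 0.133% and 0.155% of all genes were called lower.

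Set against the summed stellate markers, a comparison added after the values were seen, the 9 genes differed in direction. The ratio of those sums, knockdown over control, was 2.55. A gene's direction here largely follows from whether its own ratio of the means was larger than that. The comparison therefore restates the differences by which the set was chosen and supports nothing further. Per 100 units of that sum Lif stood at 3.75 and 2.94 units in the controls, against 6.01 and 5.80 in the knockdown libraries, and Il6 at 1.64 and 2.36 against 4.11 and 2.72. Il11 stood at 4.92 and 14.3 against 16.7 and 15.6, with control replicate 2 close to the knockdown libraries. Clcf1 stood at 0.703 and 1.18 against 2.27 and 1.18, and Osmr at 1.87 and 1.77 against 2.93 and 1.99, so that knockdown replicate 4 lay next to the controls. Socs3 was lower, at 22.9 and 23.9 against 16.6 and 17.4, and so were Lifr, Il6st and Il11ra1. The direction of Socs3 depended on the list used. Per 100 units of summed duct markers it stood at 3.24 and 3.23 against 3.42 and 4.31, and of macrophage markers at 76.6 and 80.5 against 108 and 105, higher in both knockdown libraries. Krt7, Krt8, Krt18, Spp1 and Epcam made up most of the duct sum in every library. Per 100 units of endothelial markers Socs3 stood at 13.9 and 17.6 against 15.2 and 16.2, with overlap. The part of stromal, endothelial or duct cells in the differences of the family was not tested.

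**Figure D4:**
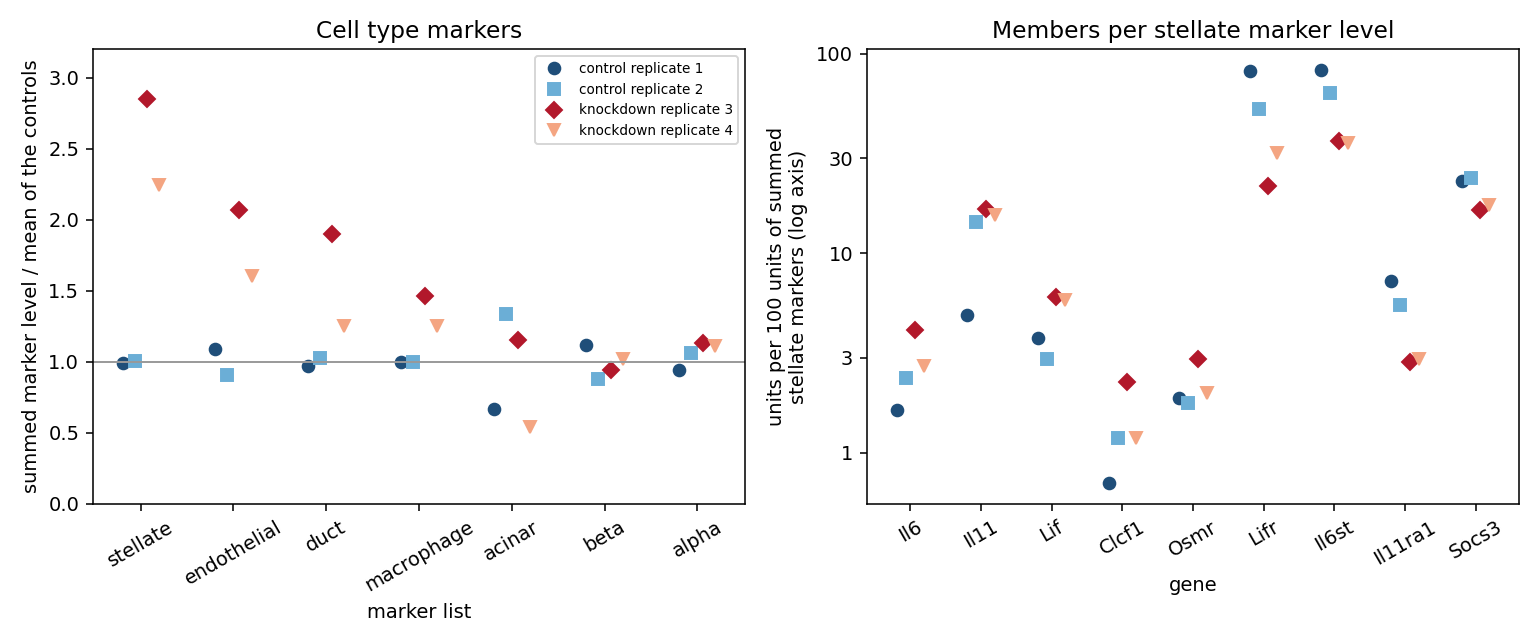
Left, summed level of 7 marker lists in each library relative to the mean of the controls; right, units of each of the 9 genes per 100 units of summed stellate markers, on a log axis, with 1 point per library. Stellate marker sums were 124 and 126 units in the controls, against 356 and 281 in the knockdown libraries, and per stellate marker level Il6, Il11, Lif and Osmr were above both controls, Clcf1 in knockdown replicate 4 was level with control replicate 2, and Socs3, Lifr, Il6st and Il11ra1 were below.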

How the data were processed

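RNA from islets was sequenced after ribosomal RNA removal, and the authors deposited a table of 1 signal value for each gene in each library. Per the submitters' processing notes, which give no roles, STAR 2.5.1b, HOMER 4.9, edgeR and the mm10 build were used. The deposited signal is reads per 10000000 reads, without scaling by length, although the table is named for FPKM. Divided by the worth of 1 read, 100% of the values came out whole within 0.01 reads, which recovered the counts. On those reads edgeR called 168 genes higher and 18 lower. The length equals the gene span for 99.2% of rows. In 244 of 245 pairs of a gene and a gene of the other strand enclosing it, the outer row was at least as high in every library. Counts were therefore taken as unstranded over gene bodies, although the library kit is directional per the labels. The mode of counting is not given in the sources used here.

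Values were fitted as log2(value + 1) by limma 3.58.1 (R 4.3.3), with its variance prior following the mean level and two-sided tests. The 13531 genes fitted averaged 1 unit or more and spanned 200 nt or more. The prior degrees of freedom were infinite, so the trend replaced the spread of each gene, and 4 higher and 3 lower calls had overlapping groups. Fold changes are relative to the median of all genes, 0.17, while p-values test the unshifted change. Alternatives were scaling, pseudocount, filter, trend, edgeR 4.0.16, DESeq2 1.42.0 and leaving out each library. The scripts' fits were tested on simulated data. The members, lists and tests were chosen with earlier results of these data known. Named were all members and Taz, the genes called in each pathway list (up to 6 by adjusted p), the 2 most abundant of each, and the 6 genes nearest to Il11. A gene that this rule names is not reported here. Upstream sequences are from RefSeq (GRCm38.p6), cut where a GENCODE vM21 exon began.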

Additional observations from a re-analysis of the deposited data

How the results depend on the processing

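No paired analysis was run, since the groups share no replicate number and whether any pools were matched is not stated. The counts of calls depended on the processing. Over all genes 337 rose and 6 fell. Median-ratio scaling gave 151 higher and 21 lower, quantile normalization 86 higher, no filter on low values 101 higher and 1 lower, and no trend 528 higher and 16 lower. By edgeR the counts were 168 and 18, on read pairs (chosen after seeing the data) 160 and 18, and by DESeq2 82 and 10. Leaving out a library gave from 28 (knockdown replicate 3) to 1266 (control replicate 1) higher and from 3 (knockdown replicate 4) to 59 (control replicate 2) lower. Of the other pathway genes, 12 rose and 2 fell. Scaling gave 5 and 0, quantile normalization 4 and 0, no filter 0 and 0 (with 16 higher and 0 lower at an unadjusted p under 0.05 by limma), edgeR 6 and 0, read pairs 6 and 0, and DESeq2 5 and 0. Leaving out a library gave 0 (knockdown replicate 3) to 20 (control replicate 1) higher and 0 (knockdown replicate 4) to 3 (control replicate 1) lower. The cause was not tested. Of 117 fold changes of the 9 genes under the 13 alternatives, 104 moved by less than the spread between replicates and 13 by more. None of the 6 genes past the threshold changed sign. Il6st was past it without control replicate 1 alone. Depth limits the precision of Clcf1, at 6 and 12 reads in the controls.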
